A study of Mus musculus with 6 samples.

Results

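The platelet-derived growth factor (PDGF) family was examined in RNA-seq of mouse glioblastoma (GBM) neurosphere lines. The 6 listed genes were the ligands Pdgfa, Pdgfb, Pdgfc and Pdgfd and the receptors Pdgfra and Pdgfrb. The deposited table has 13069 rows, 5 of these genes among them, and the expression of Pdgfd, the ligand that favours the beta receptor, is not analysed here. The study set 3 ATRX knockout (ATRX KO) libraries against 3 ATRX wild-type (ATRX WT) libraries. ATRX is a chromatin remodeller that helps to place a histone variant at telomeres and other repeats. Both lines came from tumours that Sleeping Beauty transposon plasmids started in the brain ventricles of neonatal mice, strain C57BL/6 or FVB. The plasmids of both lines carried a short hairpin against p53 and a copy of NRAS, and a short hairpin against ATRX was present or absent. The labels name both a knockout and this hairpin, and they do not say which strain a line came from. Every culture grew in stem cell medium with FGF, EGF, B-27 and N-2, and PDGF is not among the supplements the labels name. All titles of a genotype share 1 line code, C54B for ATRX KO and C39E for ATRX WT, so line and genotype cannot be told apart. The series title names the question, whether loss of ATRX in glioma changes how cells pass between phases of their cycle.

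PDGF chains are secreted as disulfide-linked dimers that draw receptor tyrosine kinases together at the cell surface. The alpha receptor, encoded by Pdgfra, takes A, B and C chains, and the beta receptor, encoded by Pdgfrb, takes B and D chains, while mixed receptor dimers also form. In the developing brain the alpha receptor marks oligodendrocyte precursors, which PDGF-A drives to divide and migrate, and it is often amplified in human glioma. The beta receptor is a gene of pericytes and fibroblasts, and the alpha receptor is active in mesenchyme too.

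Each ATRX KO library had 22177228 to 32477269 reads in the table, and each ATRX WT library 34966108 to 38039847. Values are RPKM, reads scaled by gene length and library size, or their log2, and each mean is followed by its SD over 3 libraries. The words rose and fell are kept for ATRX KO against ATRX WT where limma's two-sided test returned an adjusted p under 0.05 (Benjamini-Hochberg over 12201 tested genes). Of those genes 89.5% passed, 43.6% as rises and 45.9% as falls, and the median log2 difference was -0.02. Atrx itself stood at 16.0 ± 1.596 RPKM in ATRX KO and 22.2 ± 0.571 RPKM in ATRX WT (SD, n = 3 each), a log2 difference of -0.48 (limma adjusted p = 0.00013). The spread between libraries of a genotype, as a chi-square of read counts per degree of freedom, was 1.89 to 7.24, where counting error alone gives about 1. The largest value was that of ATRX KO replicates 1 and 2. The series text calls the libraries biological replicates and does not say what separates them, so the p-values weigh differences against a spread that may be technical.

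All 5 genes of the family in the table were higher in ATRX KO, the receptors by far more than the ligands. Pdgfrb, the beta receptor, went from 0.137 to 38.4 RPKM and Pdgfra, the alpha receptor, from 3.41 to 31.5 RPKM. The ligands Pdgfa, Pdgfb and Pdgfc rose by log2 1.00, 1.19 and 1.05. The count of 5 rises among 5 tested stands beside a background of 43.6% of tested genes that rose, and the family's median log2 difference was 1.19. In each of the 5 genes every ATRX KO library lay above every ATRX WT library, which held for 44.0% of all tested genes, while the opposite order held for 46.5%. The low-value filter asked for log2 RPKM of at least 0 in 3 libraries. Of the 5 genes 4 met it in every library, and Pdgfrb met it through ATRX KO alone, so that it could only pass by being higher there.

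**Figure D1:**
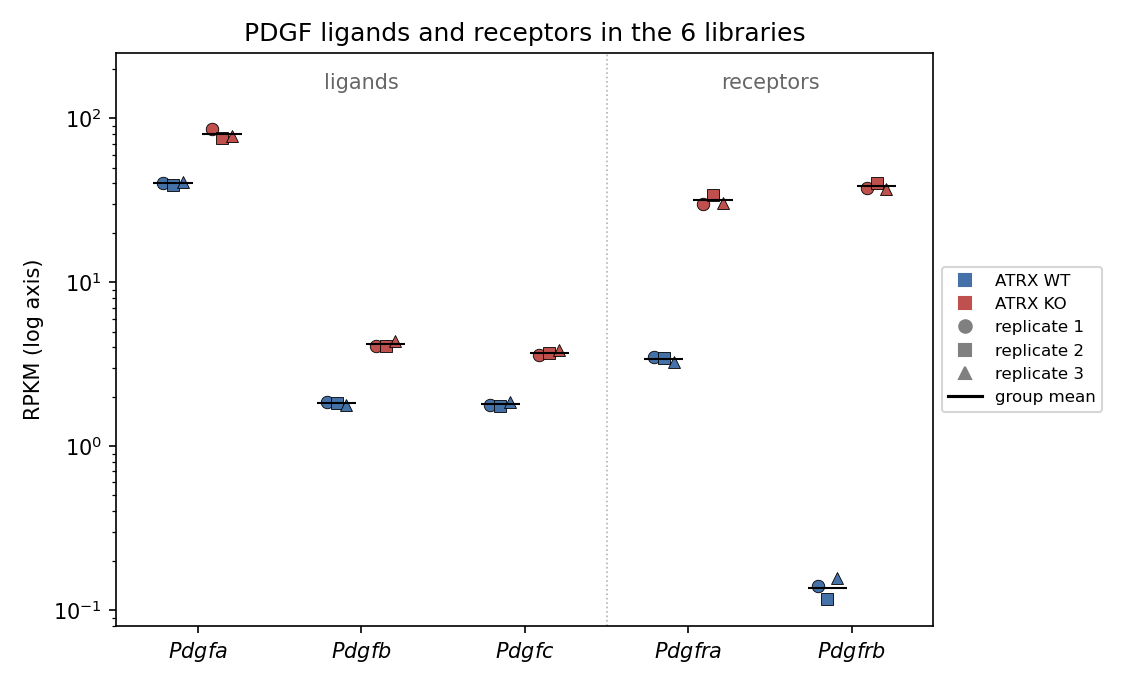
RPKM on a log axis for each family member in each library (red, ATRX KO; blue, ATRX WT; marker shape, replicate; bar, group mean). The groups do not overlap for any of the 5 genes, and the gap is widest for Pdgfrb, at 38.4 against 0.137 RPKM.

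Among the ligands, Pdgfa encodes the A chain, which binds the alpha receptor alone. Its level was 86.3, 75.7 and 78.4 RPKM in the ATRX KO libraries, in replicate order, and 40.5, 39.2 and 40.6 RPKM in the ATRX WT libraries. The ATRX KO libraries were the more spread of the groups, and none came near the ATRX WT range. The means were 80.2 ± 5.52 and 40.1 ± 0.814 RPKM (SD, n = 3 each), a log2 fold change of 1.00 (SE 0.0472, 95% interval 0.89 to 1.10, limma adjusted p = 6.2e-08). Pdgfa (ENSMUSG00000025856.15) lies on the minus strand of chromosome 5, 138976014 to 138997370, in GENCODE M21 (GRCm38).

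Pdgfb encodes the B chain, which binds both receptors and is best known from platelets and endothelium, where it recruits pericytes. Its level was 4.10, 4.07 and 4.35 RPKM in ATRX KO libraries against 1.86, 1.82 and 1.79 RPKM in ATRX WT. Both groups were tight, with coefficients of variation of 3.63% and 2.01%. The log2 fold change was 1.19 (SE 0.0631, 95% interval 1.05 to 1.34, limma adjusted p = 1.3e-07), resting on 939 and 624 reads over the groups. Pdgfb (ENSMUSG00000000489.7) lies on chromosome 15, 79995874 to 80014977, minus strand.

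Pdgfc encodes a C chain that is secreted with a CUB domain and becomes active once a protease removes it. Its level was 3.603, 3.67 and 3.88 RPKM in ATRX KO libraries against 1.79, 1.75 and 1.85 RPKM in ATRX WT. These values again left a clear gap between the groups. The log2 fold change was 1.05 (SE 0.0657, 95% interval 0.90 to 1.20, limma adjusted p = 4.4e-07), from 998 and 736 reads. Pdgfc (ENSMUSG00000028019.9) lies on chromosome 3, 81036416 to 81214040, plus strand.

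The 3 ligands rose by similar amounts, and their intervals overlap. Rises larger than those of Pdgfa, Pdgfb and Pdgfc were found in 17.3%, 14.5% and 16.6% of all tested genes. The log2 ratio of Pdgfa to Pdgfb within a library was 4.396, 4.22 and 4.17 in ATRX KO and 4.45, 4.43 and 4.51 in ATRX WT. It was thus lower by 0.20 in ATRX KO without overlap, with p = 0.1 in a two-sided exact permutation test, the smallest p that 3 against 3 libraries allow. Quantile normalization gave -0.79 for this difference. The ratio of the classical ligands Pdgfa and Pdgfb to Pdgfc, in which Pdgfd would also have stood, was 4.50 ± 0.13 against 4.54 ± 0.02 on the log2 scale (SD, n = 3 each; exact permutation p = 0.6). Its difference of -0.04 was smaller than the spread among ATRX KO libraries, and it turned to 0.00093 without ATRX KO replicate 3.

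Of the receptors, Pdgfra is the gene of the alpha receptor. The ATRX KO libraries held 30.2, 33.8 and 30.5 RPKM of it, and the ATRX WT libraries 3.503, 3.47 and 3.26 RPKM. The lowest ATRX KO library was far above the highest ATRX WT library. The log2 fold change was 3.21 (SE 0.0558, 95% interval 3.08 to 3.335, limma adjusted p = 1.2e-10), or 9.23-fold (interval 8.45 to 10.1). It rested on 16372 and 2697 reads over the groups. Rises larger than that of Pdgfra were found in 4.71% of tested genes. Pdgfra (ENSMUSG00000029231.15) lies on chromosome 5, 75152292 to 75198215, plus strand.

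Pdgfrb is the gene of the beta receptor. The ATRX KO libraries held 37.5, 40.5 and 37.2 RPKM of it, and the ATRX WT libraries 0.139, 0.116 and 0.156 RPKM. The ATRX WT values rest on 26, 23 and 31 reads, against 6146, 5732 and 4178 in ATRX KO, so transcript was detected in ATRX WT, at a level above that of 1.64% of tested genes. The log2 fold change was 8.14 (SE 0.11, 95% interval 7.89 to 8.39, limma adjusted p = 3.4e-11), a 282-fold difference (interval 237 to 336). This was rank 41 among the rises of 12201 tested genes. Taken from summed reads over summed library sizes, the ratio was 306 (95% interval 246 to 386, counting error only). On the scale log2(RPKM + 1), which shrinks low genes, the difference was 5.11. Pdgfrb (ENSMUSG00000024620.11) lies on chromosome 18, 61045150 to 61085061, plus strand.

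**Figure D2:**
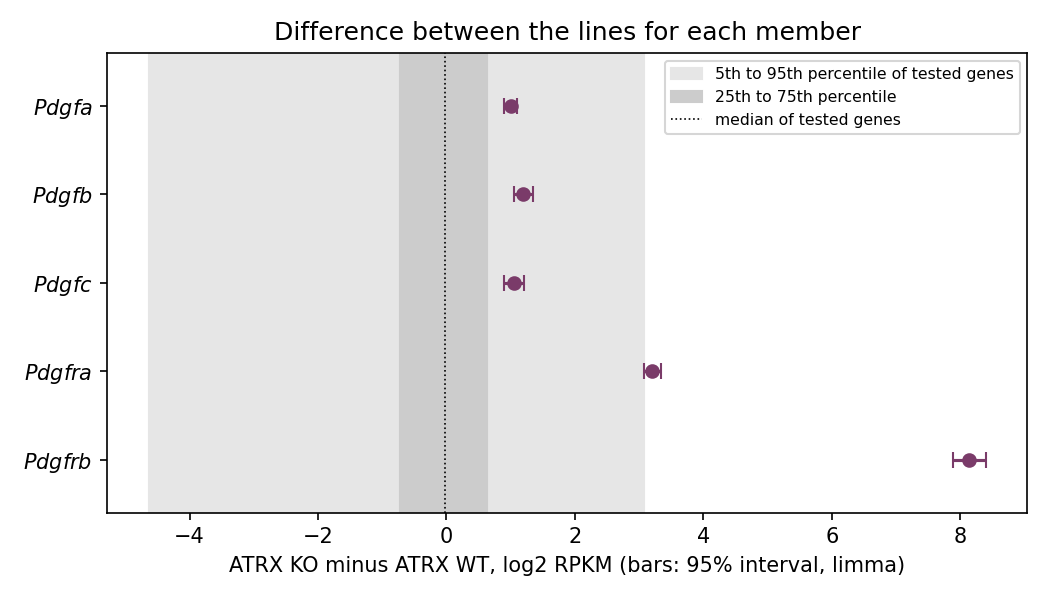
Difference ATRX KO minus ATRX WT in log2 RPKM for each member, with limma's 95% interval, over grey bands for the middle of all 12201 tested genes. The ligands lie between 1.00 and 1.19, Pdgfra at 3.21 lies just above the 95th percentile of 3.08, and Pdgfrb at 8.14 lies far outside it.

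The balance between receptors differed between the lines. The log2 ratio of Pdgfra to Pdgfrb was -0.32, -0.26 and -0.29 in the ATRX KO libraries and 4.65, 4.90 and 4.385 in the ATRX WT libraries. Every ATRX KO library had more Pdgfrb than Pdgfra per kilobase, and every ATRX WT library had many times more Pdgfra than Pdgfrb. The groups' mean log2 ratios differed by -4.93 (exact permutation test, two-sided, p = 0.1, again the smallest possible). In other terms, Pdgfra made up 44.5% to 45.5% of the summed receptor RPKM in ATRX KO, whereas it made up 95.4% to 96.8% in ATRX WT. The ligand mixture was close to the same in both lines, with Pdgfa at 90.5% to 91.8% of summed ligand RPKM in ATRX KO against 91.6% to 91.8% in ATRX WT. A single scaling factor per library cancels in such ratios. Quantile normalization is no such factor, and it gave -5.91 for the difference in receptor ratio.

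Summed over the family, ligand transcripts were at 83.4 to 94.0 RPKM in ATRX KO and 42.7 to 44.3 RPKM in ATRX WT. Receptor transcripts summed to 67.7 to 74.3 RPKM in ATRX KO and 3.41 to 3.64 RPKM in ATRX WT. The ratio of ligand to receptor transcripts was therefore 1.26 in ATRX KO and 12.3 in ATRX WT, as geometric means over libraries. This log2 ratio differed by -3.29 (exact permutation p = 0.1). Divided by all annotated exons in place of the lengths used in the table, the ratios were 0.536 and 6.44, so that in ATRX KO ligand transcripts were then below receptor transcripts. Pdgfa alone stood 2.54-fold above Pdgfra in ATRX KO and 11.8-fold above it in ATRX WT (log2 difference -2.21). Of the 5 within-library ratios computed 3 were chosen after the values were seen, and an exact permutation p of 0.1 became 0.125 on Benjamini-Hochberg adjustment over the 5.

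**Figure D3:**
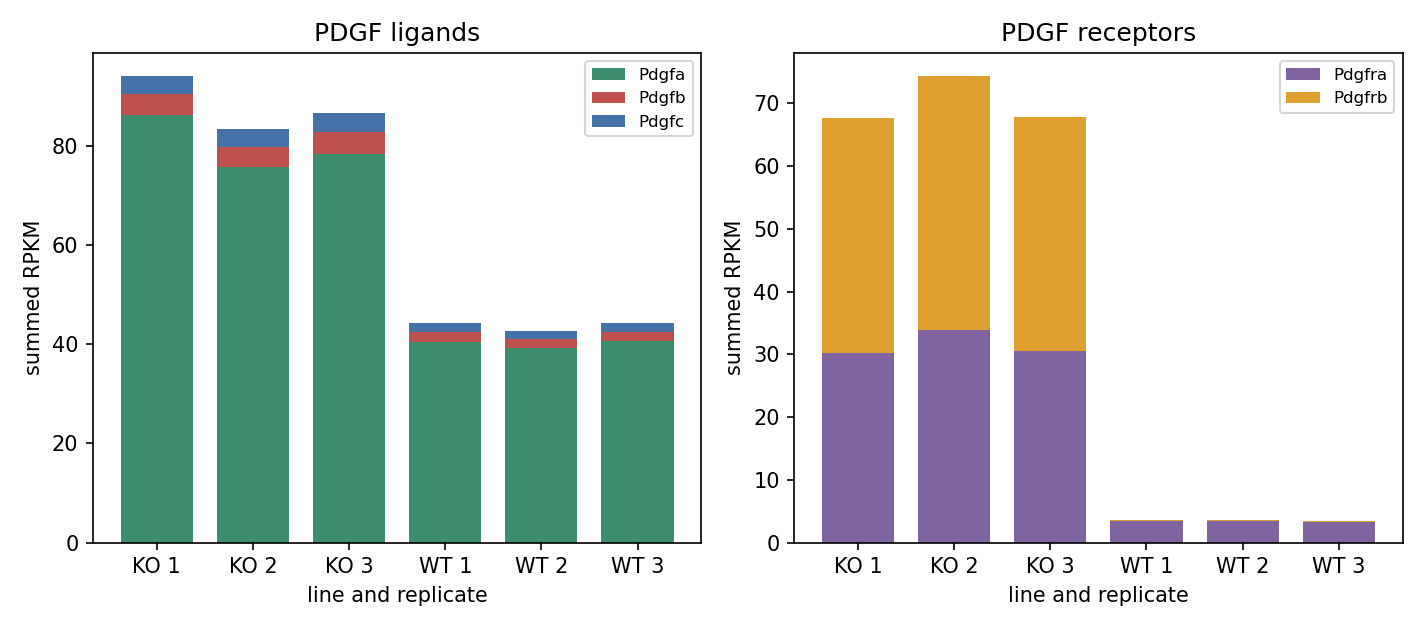
Stacked bars of summed RPKM in each library for ligands (left) and receptors (right). Ligand bars are mostly Pdgfa in both lines, while receptor bars rise from 3.41 to 3.64 in ATRX WT to 67.7 to 74.3 in ATRX KO, where Pdgfrb takes the larger share.

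Within ATRX KO the order of levels in RPKM was Pdgfa, Pdgfrb, Pdgfra, Pdgfb, Pdgfc. Neighbours in that order did not overlap, and the closest were Pdgfb and Pdgfc at 4.17 and 3.72 RPKM. In ATRX WT the order was Pdgfa, Pdgfra, Pdgfb, Pdgfc, Pdgfrb. There Pdgfb and Pdgfc, at 1.82 and 1.80 RPKM, overlapped and are not separated by these libraries. Pdgfa stood above 91.3% of tested genes in ATRX KO and above 83.0% in ATRX WT, whereas Pdgfrb moved from above 1.64% to above 80.3%. Levels of different genes rest on the length each was divided by. That length, recovered from the values, was 1018 bases for Pdgfa, 2942 for Pdgfb, 3512 for Pdgfc, 6737 for Pdgfra and 5413 for Pdgfrb, whereas all annotated exons of Pdgfa cover 3119 bases in GENCODE M21. With annotated exon lengths Pdgfa stood at 26.2 ± 1.80 RPKM in ATRX KO, below Pdgfrb at 37.9 ± 1.76 RPKM and above Pdgfra at 21.2 ± 1.36 RPKM (SD, n = 3 each), so the top of that order turned.

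RefSeq windows before the transcription start were at hand for Pdgfa, Pdgfc, Pdgfd and Pdgfra (GRCm38.p6). They were searched for short motifs because Pdgfa, Pdgfc and Pdgfra rose together, and the window of Pdgfd was searched alongside. The 250 bases before the start are printed for Pdgfra, the alpha receptor, and for Pdgfc, the ligand whose window holds a CArG box, the element that serum response factor recognises. Both lie on the plus strand, Pdgfra at chr5:75152001-75152250 and Pdgfc at chr3:81036166-81036415. Capitals mark the CArG box, and the sequences read 5′ to 3′.
Pdgfra: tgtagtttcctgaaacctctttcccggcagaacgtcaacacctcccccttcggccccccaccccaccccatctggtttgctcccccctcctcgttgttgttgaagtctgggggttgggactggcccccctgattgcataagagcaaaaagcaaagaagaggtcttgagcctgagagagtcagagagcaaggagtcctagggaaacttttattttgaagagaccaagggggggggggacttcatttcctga
Pdgfc: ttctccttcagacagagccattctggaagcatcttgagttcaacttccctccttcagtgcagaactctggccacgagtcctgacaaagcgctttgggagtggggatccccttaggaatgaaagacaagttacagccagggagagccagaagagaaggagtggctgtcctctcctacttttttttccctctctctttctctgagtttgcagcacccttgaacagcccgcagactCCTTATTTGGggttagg

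The CArG box of Pdgfc begins 17 bases before the start, and 1.47% of 32851 promoter windows of this length hold such a box. The other motifs, searched on both strands, were GGGCGG (GC box, in 32.7% of windows), TATAAA (12.4%), CCAAT (33.8%), TGANTCA (AP-1, 6.75%) and GCGNGGGCG (EGR, 4.70%). Neither printed window held any of these. The Pdgfd window held TATAAA once. Both Pdgfa windows held GC boxes, 1 in the first and 2 in the second, and were rich in G and C at 66.4% and 72.4%. They overlap annotated exons and are not printed. A match is a description of letters and says nothing of whether a factor binds.

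Calls among chromosomal neighbours of the family members are given beside the 43.6% of all tested genes that rose and the 45.9% that fell. The gene named on each side is the nearest row symbol with 1 position in GENCODE M21, so genes without a row were passed over. Gaps reached 719 kb, between Pdgfc and Ctso. Within 1 Mb of Pdgfra 7 other genes were tested, with 4 rises, 2 falls and a median log2 difference of 0.38. On one side Chic2 rose by 1.42 (SE 0.0552), and on the other Kit, the stem cell factor receptor and a close relative of Pdgfra, fell by 6.26 (SE 0.166), with 24 against 3243 reads. The filter kept Kit through ATRX WT alone. Kdr, the VEGF receptor gene that stands near Kit and Pdgfra on chromosome 5, was picked with its value known and was left out by the filter, with 100 and 189 reads. Around Pdgfrb the 18 tested genes gave 13 rises and 4 falls (median 0.60). Its tested neighbour Hmgxb3 rose by 0.44, and Camk2a, on the other side and left out by the filter, had a log2 difference of -0.35 over all genes of the table (limma adjusted p = 0.068).

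Of 31 genes tested within 1 Mb of Pdgfa 11 rose and 17 fell (median -0.28), with the secreted-protein kinase gene Fam20c rising by 1.31 on one side and Prkar1b, a regulatory subunit of protein kinase A, falling by 2.08 on the other. Of 35 around Pdgfb 17 rose and 15 fell (median 0.06). The nearest row symbols on both sides rose by amounts near the 1.19 of Pdgfb, Cbx7, of Polycomb, by 1.03 and Rpl3, of the ribosome, by 1.42. Of 3 around Pdgfc 0 rose and 3 fell, among them the neighbours Glrb, a glycine receptor subunit (-2.17), and the protease gene Ctso (-0.78).

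**Figure D4:**
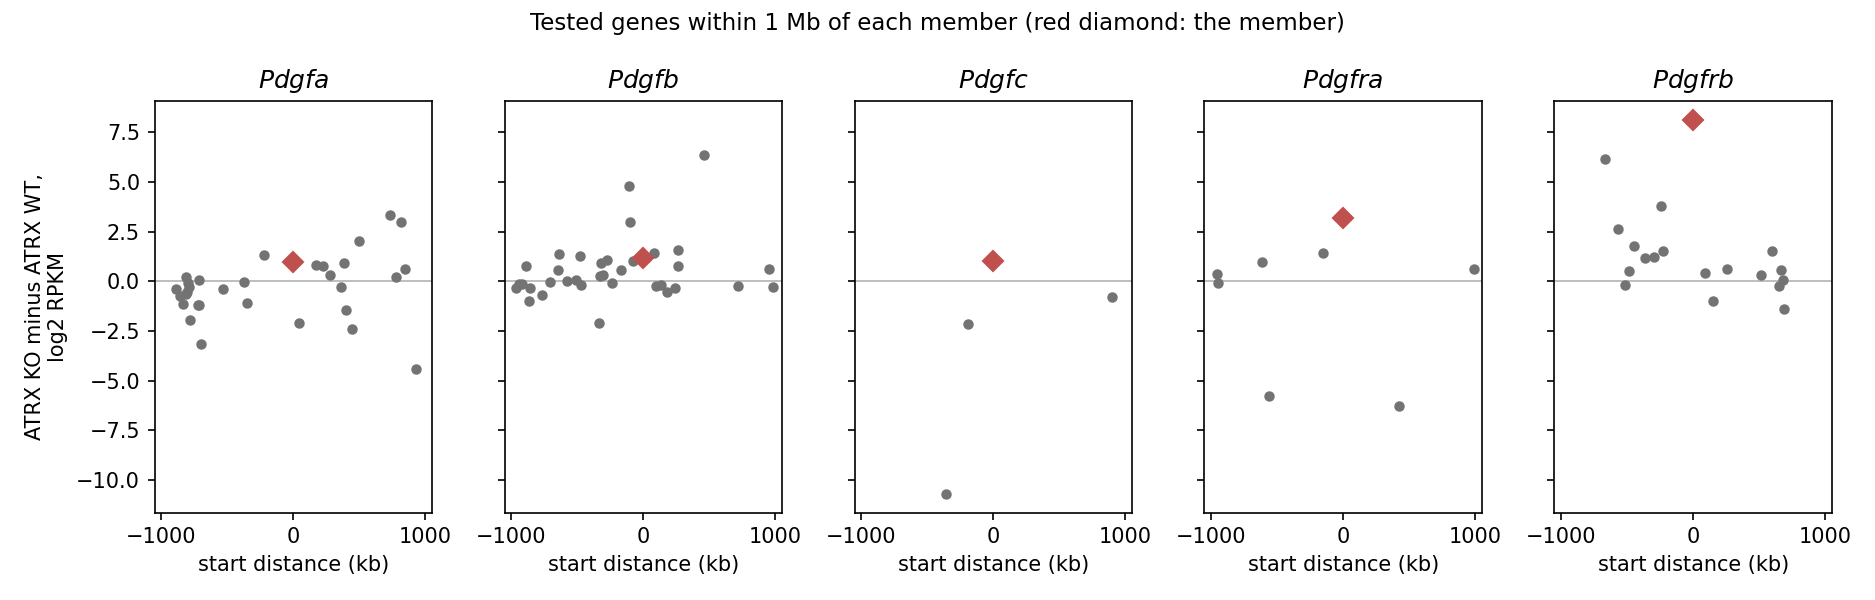
Log2 difference ATRX KO minus ATRX WT for tested genes (grey) by the distance of their start from that of each family member (red diamond), in kb. Pdgfra at 3.21, Pdgfrb at 8.14 and Pdgfc at 1.05 lie above every tested neighbour within 1 Mb, of which Pdgfc has 3.

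The patterns most like each member over the 6 libraries were found by the Euclidean distance of log2 RPKM after removing each gene's mean. For Pdgfrb they were the chemokine genes Ccl2 (distance 0.140) and Ccl20 (0.198), with rises of 8.14 and 8.06. For Pdgfra they were Kctd12 (0.0636) and the cystine transporter gene Slc7a11 (0.0975). Pdgfa was closest to the ribosomal gene Rpl13a (0.041) and to Tmem11 (0.0619), Pdgfb to Prkar2b (0.0521) and Zbtb11 (0.0598), and Pdgfc to the Mediator gene Med8 (0.0458) and 0610037L13Rik (0.0556). With only 2 groups, such likeness is mostly the size of the difference.

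Among genes that process PDGF ligands or act as their partners outside the cell, the plasminogen activators and convertases went both ways and the other tested genes rose. Of 14 listed genes 11 were tested and all were called, 8 as rises and 3 as falls. Calls in this list and those below stand beside the 43.6% of all tested genes that rose and the 45.9% that fell. The median log2 difference was 1.92, against -0.02 over all tested genes. Of the plasminogen activators and convertases Plau and Furin rose while Plat, Pcsk6 and Pcsk7 fell, and the remaining tested genes, Sparc, Cspg4, Nrp1, Lrp1, Thbs1 and Htra1, rose. Plau, the urokinase that activates PDGF-D, rose most, from 5.33 ± 0.15 to 248 ± 3.73 RPKM (log2 fold change 5.54, SE 0.0306). Plat, the tissue plasminogen activator that frees active PDGF-C, fell by 0.29, from 91.2 to 74.4 RPKM. Thbs1, a matrix protein, rose by 5.24, and Lrp1, a co-receptor for the beta receptor, rose by 2.25. Furin, the convertase that trims A and B chains, went up from 11.5 to 46.6 RPKM (a gene picked once its value was known), while the convertases Pcsk7 and Pcsk6 fell by 0.66 and 0.58.

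Of the other receptors of the same class and their ligands, 5 of 7 listed genes were tested, giving 3 rises, 1 fall and 1 gene with no call (median 1.89). Kit fell from 5.33 ± 0.0948 to 0.0708 ± 0.0164 RPKM, and its ligand gene Kitl stood at log2 RPKM 3.59 ± 0.10 and 3.57 ± 0.08 (SD, n = 3 each; log2 difference 0.01, SE 0.0624, limma adjusted p = 0.85). The filter kept Kit through ATRX WT alone, so that it could only pass by being lower in ATRX KO. The ligands of the macrophage receptor Csf1r both rose, Csf1 from 8.70 to 80.0 RPKM (9.2-fold) and Il34 from 4.06 to 15.0 RPKM (log2 1.89). Flt3l, the ligand of Flt3, rose by 2.08. The receptor genes Csf1r and Flt3 are not among the row symbols. When library size was the sum of reads listed in the table, Kitl passed as lower too (log2 difference -0.18, limma adjusted p = 0.021), which makes 2 falls in this list.

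Adaptors, effector enzymes and off switches of PDGF receptors went both ways. Of 36 listed genes 34 were tested, giving 18 rises, 11 falls and 5 genes with no call (median 0.12). Over all tested genes 43.6% rose and 45.9% fell. The largest rises were Jak1, a cytokine receptor kinase (2.34), the adaptor Shc1 (2.13, from 13.7 to 60.3 RPKM) and Cblb, a ubiquitin ligase that turns receptors off (1.94). The largest falls were the docking protein gene Gab1 (-2.25, from 11.7 to 2.46 RPKM), the Src-family kinase Fyn (-1.58, from 125 to 42.0 RPKM) and the adaptor Crkl (-1.09). The split rests on scaling, for when library size was the sum of reads listed, 13 of this list were higher and 17 lower. Under that scaling the median of all tested genes moved by -0.20.

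PDGF-inducible genes, the early response genes and chemokines that were found in growth-factor-treated fibroblasts, were mostly higher. All 24 listed were tested and called, 21 as rises and 3 as falls (median 2.24). The chemokine genes Ccl7 and Ccl2 led, Ccl2 from 2.89 ± 0.255 to 815 ± 12.8 RPKM (log2 fold change 8.14) and Ccl7 from 14 to 13663 reads (9.94), and the prostaglandin synthase Ptgs2 rose by 8.06. Myc, picked once its value was known, rose from 46.4 to 570 RPKM. The falls were Spry4 (-0.89) and Dusp6 (-0.71), which damp ERK signalling, and Fos (-0.76), an early response transcription factor. EGF and FGF, which the medium of both lines held, induce many of these genes too.

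**Figure D5:**
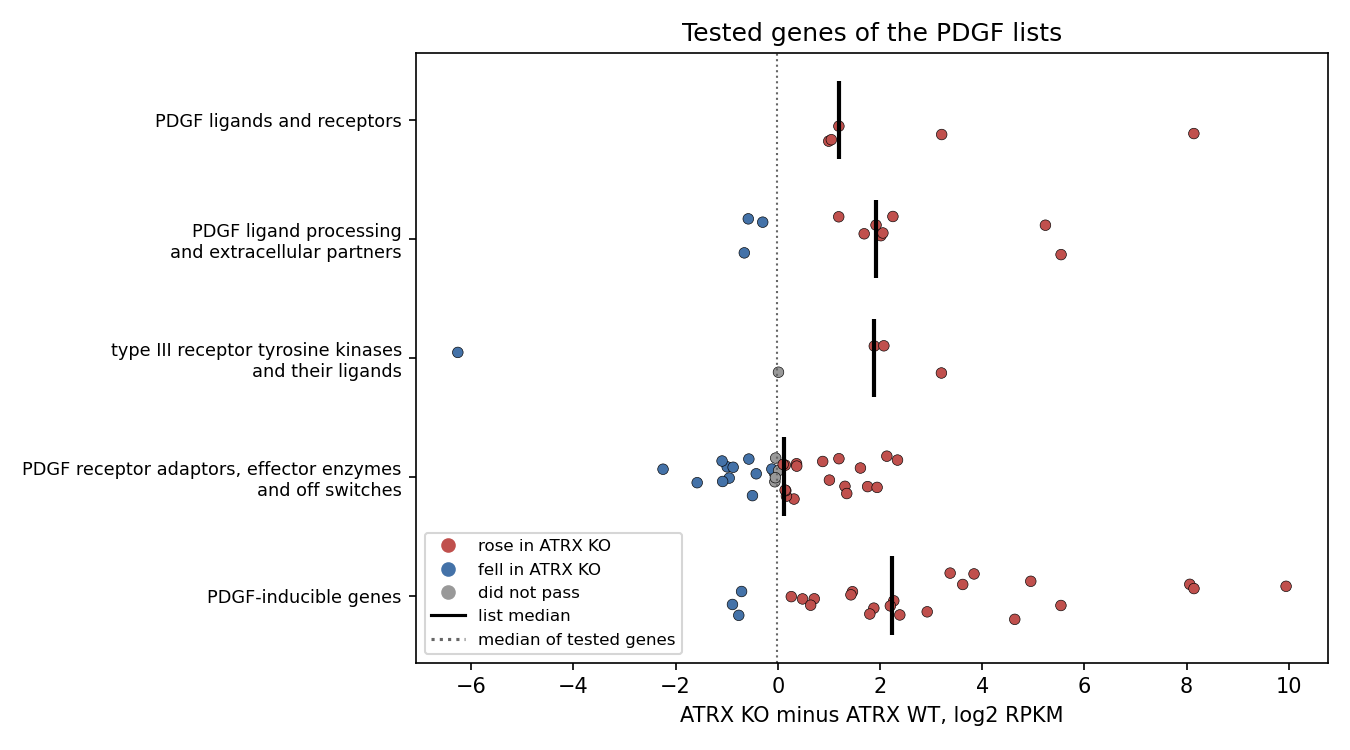
Log2 difference ATRX KO minus ATRX WT for tested genes of the family and of 4 related lists (red, rose; blue, fell; grey, did not pass; black bar, median). Medians are 1.92, 1.89, 0.12 and 2.24 for the lists from top to bottom below the family, against -0.02 over all tested genes.

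Markers of cell types that use these receptors moved in the same libraries. In bulk RNA, fewer cells of a type and less RNA per cell cannot be told apart. The background for calls in each marker list is again 43.6% of all tested genes as rises and 45.9% as falls. Among 12 oligodendrocyte precursor markers 9 were tested, with 8 falls and 1 rise, and their summed level was 13.4 to 14.4 RPKM in ATRX KO against 480 to 493 RPKM in ATRX WT. Of Olig1 ATRX WT gave 34221 reads and ATRX KO gave 0, at least 7480-fold lower (floor of 3 reads over the group), and Ptprz1 had 3 reads against 70974, a ratio of 15500 (95% counting interval 5300 to 75200). Olig2 had 2 reads in ATRX KO, and the 1 rise was Cspg4 (2.06), a proteoglycan that binds PDGF-AA and is shared with pericytes. The rise of Pdgfra thus stood beside 8 falls and 1 rise among tested precursor markers. Of those 9 only 2 had a mean above the filter in ATRX KO, so it kept the others through ATRX WT.

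Of 12 fibroblast and mesenchymal markers 10 were tested and those 10 rose, with a summed level of 1720 to 1880 RPKM in ATRX KO against at most 53.0 RPKM in ATRX WT. In ATRX WT 3 of those 10 reached a mean log2 RPKM of 0, so the filter kept most through ATRX KO. Left out by the filter were Col1a2, at 0.635 RPKM in ATRX KO against 0.0555 RPKM in ATRX WT, and Thy1. Thy1 went the other way, at 0.656 against 1.12 RPKM (log2 difference -0.84). The matrix genes Col3a1 and Postn rose by 13.73 and 11.77. Of 12 pericyte and smooth muscle markers 6 were tested, of which 4 rose and 2 fell, at 43.4 to 47.1 against 123 to 126 RPKM in sum. Rgs5, a pericyte gene, fell to 6 reads from 4081, and Mcam fell by 3.23, while Anpep and Cspg4 rose by 5.77 and 2.06. The filter kept Anpep and Acta2 through ATRX KO and Rgs5 through ATRX WT. Each of these could only pass by being higher in that group. The part of these marker changes in the receptor results was not tested.

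Sources of Pdgfb were also looked for. Endothelial markers summed to 23.7 to 25.3 RPKM in ATRX KO and 6.54 to 6.95 RPKM in ATRX WT, and of 5 tested among 11 listed 4 rose and 1 fell. Cdh5, Emcn and the microglial Tmem119 were under log2 RPKM 0 in ATRX WT, so the filter kept them through ATRX KO. Esam was under log2 RPKM 0 in ATRX KO, so the filter kept it through ATRX WT. Cdh5, the endothelial cadherin, rose by 7.19 to 5.76 RPKM and Emcn by 5.41, Esam fell by 4.28, and Pecam1, Tek and Cldn5 are not among the row symbols. Of 6 platelet markers 2 are in the table, summing to 1.28 to 2.05 RPKM in ATRX KO against 1.32 to 1.47 RPKM in ATRX WT. Itga2b, kept by the filter through ATRX KO, had a log2 difference of 0.92, and Gp1bb, left out by the filter and named with its value known, had 8 reads against 153. Tmem119 and Cd68, the 2 tested among 10 markers of microglia and macrophages, rose by 6.04 and 2.25. These 2 alone summed to 30.6 to 35.1 against 5.60 to 6.36 RPKM. The others of that list, Aif1, Cx3cr1, Csf1r, P2ry12, Itgam, Ptprc, Trem2 and Tyrobp, are not among the row symbols. Neural stem cell genes, looked at after the other values, were lower in ATRX KO. Sox2 was at 19.8 against 80.4 RPKM, Nes at 28.3 against 91.2, Msi1 at 7.09 against 27.2 and Prom1 at 0.142 against 3.58. Gfap is not among the row symbols. Fabp7, a radial glia gene, had 4 reads against 247523. Of the neural markers looked at, some were thus well detected in ATRX KO and others were near 0. The part of these markers in the result for Pdgfb was not tested.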

How the data were processed

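RNA of 6 libraries (3 per genotype) was read as paired-end 42-nt reads from a stranded mRNA kit, per the labels' protocols. What the authors deposited is a single log2 RPKM table. Reads were handled with STAR 2.5.3a, FastQC, HTSeq 0.11.2, Trim Galore and edgeR 3.20.9, which the submitters' processing notes name beside the builds mm9 and mm10, without roles (per the submitters' processing notes). Which build was used for counting and how low genes were filtered are not given in the sources used here. Whole reads and gene lengths were recovered from the steps of the deposited log2 values, which hold a prior averaging 2 reads, for 100% of genes (tolerance 0.0001 reads). The deposited scaling used library sizes of 0.932 to 0.935 times the table's reads for ATRX KO libraries and 1.068 to 1.073 times for ATRX WT libraries.

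The 12201 genes that reach log2 RPKM 0 in 3 or more libraries entered a limma 3.58.1 fit (R 4.3.3) with a variance trend (residual df 4, prior df 4.18). Ratios within libraries were compared with two-sided exact permutation tests (SciPy 1.17.1). Both methods, and the read recovery, were tested on simulated data. Alternatives were other filters, pseudocounts of 1 and 0.1, quantile normalization, library size as table reads, voom, no trend, a replicate block and leaving out each library. Named genes were the family, Atrx, up to 3 rises and 3 falls per pathway list and all of the receptor class list. Others were up to 2 each way per marker list, the nearest row symbol on each side and the 2 nearest patterns. The family and the lists were chosen with earlier results of these data known. Of the symbols 12598 had 1 position in GENCODE M21, 22 had more than 1 and 449 had none. Intervals and floors on reads cover counting error only.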

Additional observations from a re-analysis of the deposited data

How the results depend on the processing

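All 5 family members rose with the same call under each of the 15 alternatives. In the main fit 10925 of 12201 tested genes passed (89.5%). Over the alternatives 10170 to 11694 passed, the lowest at a filter of log2 RPKM 1 and the highest without a filter, so the number tested differed. Leaving out each library in turn gave log2 differences of 0.94 to 1.04 for Pdgfa, 1.16 to 1.21 for Pdgfb, 1.02 to 1.07 for Pdgfc, 3.15 to 3.24 for Pdgfra and 8.02 to 8.24 for Pdgfrb. The other alternatives gave 0.80 to 1.00, 0.87 to 1.61, 0.75 to 1.49, 2.88 to 3.34 and 5.11 to 9.25, and the highest adjusted p in any was 1.1e-05 for Pdgfc. The receptor ratio differed by -5.06 to -4.80 without single libraries, by -4.18 with 0.1 RPKM added and by -5.91 with quantile normalization, chosen for it after seeing the data. The ligand ratio differed by -0.12 to 0.00093 without single libraries. It was -0.01 with 0.1 RPKM added, and its sign is not resolved. The 4 pathway lists held 11, 5, 34 and 24 tested genes. Of these 68 passed in the main fit and 66 to 69 in the alternatives, beside 89.5% of all tested genes in the main fit. With the replicate number as a block, Pdgfra gave 3.21 and Pdgfrb 8.14, 5 members passed and 10851 genes passed in all. The shared numbers did not pair the libraries, since the deviations of same-numbered libraries correlated at -0.0455, 0.0513 and -0.0383, and 1 of the 3 ATRX KO and 1 of the 3 ATRX WT libraries correlated best with its own number. At a filter of log2 RPKM 1 the endothelial fall and the platelet rise left the tested genes, as did 1 of the 4 pericyte rises. With annotated exon lengths, also chosen after seeing the data, the log2 ratio of summed ligands to summed receptors was -0.90 in ATRX KO, of opposite sign to that with the lengths of the table, and 2.69 in ATRX WT. Depth limits Pdgfrb in ATRX WT, at 80 reads over the group.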

Other observations

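Pdgfrl, the PDGF receptor-like gene, whose product resembles the ligand-binding part of the receptors and lacks their kinase, is no member of the list and was chosen after its value was seen. The ATRX KO libraries held 10.9, 11.3 and 10.5 RPKM of it, and the ATRX WT libraries 1.47, 1.90 and 1.90 RPKM. The log2 fold change was 2.65 (SE 0.103, limma adjusted p = 1.6e-08), from 1290 and 311 reads over the groups. Its rise lay between those of the ligands and that of Pdgfra. Pdgfrl (ENSMUSG00000031595.9) lies on chromosome 8, 40926212 to 40990785, plus strand, in GRCm38.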
